A study of Mus musculus with 2 samples.

Results

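Expression of 10 feedback genes of the Erk pathway, namely Dusp4, Dusp5, Dusp6, Spry1, Spry2, Spry4, Spred1, Spred2, Etv4 and Etv5, was compared by RNA-seq between E14 mouse embryonic stem cells (ESCs) and E14-Sox2TA/WT cells. The genes were taken by symbol from the deposited mm10 gene table, and all 10 were found among its 24532 genes. E14 is an established mouse ESC line with wild-type Sox2. E14-Sox2TA/WT cells are an E14 clone heterozygous for the Sox2 T258A change, introduced with CRISPR/Cas9, so that threonine 258 can no longer carry the sugar O-GlcNAc in the product of 1 allele, while the other allele is wild type. The comparison asks which transcripts differ when this site of Sox2, a core transcription factor of pluripotent cells, cannot be modified in the product of 1 allele. According to the study's methods, E14 cells were grown with serum and leukemia inhibitory factor. The clone was grown from a single cell in 2i, which combines the Gsk3 inhibitor CHIR99021 with PD0325901, an inhibitor of the kinase directly above Erk, was normally kept in serum, leukemia inhibitory factor and 2i, and was used within a limited number of passages after 2i had been withdrawn. Genotype, clonal origin and earlier exposure to an inhibitor of this very pathway cannot be told apart in these libraries.

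Each genotype had 1 library, with 60263536 reads in E14 and 44609228 reads in E14-Sox2TA/WT cells. With single libraries, none of the differences was checked in replicates or tested, and p-values are not printed. The 95% intervals are exact Clopper-Pearson intervals from the read counts and cover counting error only. Sox2 itself was at 372.5 and 274.2 TPM (a level per transcript length, scaled to the same total in each library) in E14 and E14-Sox2TA/WT cells, and the table holds no sequence in which the edit could be seen. Of 8 ESC markers, 7 differed less than 2-fold and Nanog was more than 2-fold lower, at 526.9 and 251.3 TPM. Most genes differed less than 2-fold. Of the 9094 genes with a TPM of 10 or more in either library, 4.17% were more than 2-fold higher and 4.07% lower. Of the 8 markers, 4 were higher and 4 lower, with Sall4 at 84.9 and 129.2 TPM and Dppa5a at 6876.9 and 4429.3 TPM.

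Erk is the last kinase of a cascade that runs from receptors such as those for fibroblast growth factors (Fgfs) through Ras, Raf and Mek. Active Erk switches on transcription of its own brakes, so the RNA of these brakes is widely used as a readout of the pathway. In mouse ESCs, Fgf4 made by the cells keeps Erk active and prepares them to leave the naive state, and inhibition of Mek holds them in it. The Dusp genes encode phosphatases that remove the activating phosphates from Erk. Sprouty (Spry) and Spred proteins act further up, on the signal from the receptor to Raf. Etv4 and Etv5 are Ets-domain transcription factors of the Pea3 group, which Erk signaling induces and which carry the response to Fgf.

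Most of these genes were higher in E14-Sox2TA/WT cells. Of the 10 genes, 9 had a higher TPM than in E14 and 1, Etv4, had a lower TPM. More than 2-fold higher expression, with a TPM of 10 or more in either library, was found for 5 genes, which were Spred1, Dusp4, Spry4, Dusp6 and Dusp5. This filter and this threshold are those of the study's methods. The numbers of genes they gave here across the table differ from those the study reported. Across the table, 4.17% of the 9094 genes past the TPM filter were more than 2-fold higher. No member was more than 2-fold lower, against 4.07% of genes in the table. The median log2((TPM + 0.1) ratio) of the 10 genes, E14-Sox2TA/WT over E14, was 0.98, beside 0.04 for the 13269 genes whose mean TPM was 1 or more.

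All 10 genes passed the TPM filter, and 9 of them had a TPM of at least 10 in both libraries. Dusp5 passed only through E14-Sox2TA/WT cells, where it was higher. Among the 9 genes past the filter in both libraries, 4 were more than 2-fold higher, beside 2.7% of such genes in the table. A ratio above 1 was found for 9 of the 10 genes and for 57.3% of the genes past the filter, and a ratio above 1.5 for 8 of the 10 and for 14.2%. The counting interval lay wholly above 2-fold for 4 of the 10 genes and for 3.23% of the genes past the filter. The 8 genes above 1.5-fold were the 5 listed above with Etv5, Spry2 and Spred2.

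**Figure D1:**
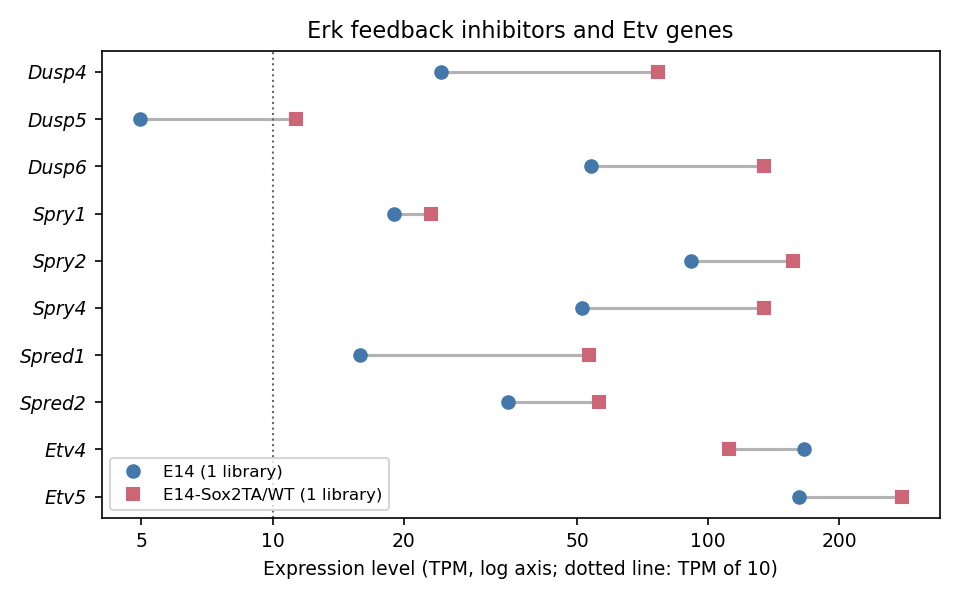
Expression level in TPM on a log axis of the 10 genes in E14 (circles) and E14-Sox2TA/WT cells (squares), with 1 library each and no error bar for want of replicates. Only Etv4 has its circle to the right of its square, and only Dusp5 has a point below the dotted line at a TPM of 10.

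The 3 Dusp genes were all more than 2-fold higher. Dusp4, a nuclear phosphatase that acts on Erk and on other MAP kinases, was at 24.4 TPM in E14 (1864 reads) and 76.8 TPM in E14-Sox2TA/WT cells (3936 reads). This was a 3.15-fold higher level, with a log2 ratio of 1.66 (95% counting interval 1.58 to 1.74). Dusp6, a cytoplasmic phosphatase with a strong preference for Erk whose transcript is often used to read the pathway, was at 53.8 TPM in E14 (4737 reads) and 134.2 TPM in E14-Sox2TA/WT cells (7920 reads), 2.50-fold higher (log2 ratio 1.32, 1.27 to 1.37). Dusp5, a nuclear phosphatase that binds Erk, was the gene with the fewest reads of the 10, with 181 reads in E14 (4.95 TPM) and 276 reads in E14-Sox2TA/WT cells (11.3 TPM). Its log2 ratio was 1.19, and since the interval ran from 0.92 to 1.47, a change of less than 2-fold was within counting error at this depth. Among the 9094 genes past the filter, ordered from the highest TPM ratio down, Dusp4 stood at place 91, Dusp6 at 169 and Dusp5 at 243.

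Dusp6 lies on chromosome 10 (99263231 to 99267489, RefSeq annotation of GRCm38), Dusp5 on chromosome 19 (53529145 to 53541809), Spred1 on chromosome 2 (117121071 to 117182279) and Spry1 on chromosome 3 (37639947 to 37644599). Promoter sequence from RefSeq (GRCm38.p6) was at hand for 7 of the 10 genes, and Dusp4, Spry4 and Etv4 had no entry. The 250 bases before the start site are shown for the 3 genes with an entry that were more than 2-fold higher, and for Spry1, whose level differed least, so that promoters of genes with large and small differences can be read side by side. Each is written 5′ to 3′ on the strand of its gene, all 4 on the plus strand. Matches to the Ets motif AGGAAG and to the GC box GGGCGG on either strand are in capitals. The windows are chr10:99262981-99263230 for Dusp6, chr19:53528895-53529144 for Dusp5, chr2:117120821-117121070 for Spred1 and chr3:37639697-37639946 for Spry1.
Dusp6: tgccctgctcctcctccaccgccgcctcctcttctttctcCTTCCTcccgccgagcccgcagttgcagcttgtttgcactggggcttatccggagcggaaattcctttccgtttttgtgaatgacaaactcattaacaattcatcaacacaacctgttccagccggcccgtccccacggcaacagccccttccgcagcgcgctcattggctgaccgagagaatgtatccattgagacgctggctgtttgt
Dusp5: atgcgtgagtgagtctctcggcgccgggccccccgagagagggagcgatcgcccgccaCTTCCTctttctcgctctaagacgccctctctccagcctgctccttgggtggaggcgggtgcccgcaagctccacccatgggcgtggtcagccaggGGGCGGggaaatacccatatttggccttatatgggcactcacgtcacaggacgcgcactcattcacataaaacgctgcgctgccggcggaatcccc
Spred1: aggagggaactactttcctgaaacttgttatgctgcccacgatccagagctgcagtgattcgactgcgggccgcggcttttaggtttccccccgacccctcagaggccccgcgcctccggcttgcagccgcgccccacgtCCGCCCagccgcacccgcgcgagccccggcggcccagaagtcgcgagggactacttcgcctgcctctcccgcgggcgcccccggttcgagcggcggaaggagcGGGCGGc
Spry1: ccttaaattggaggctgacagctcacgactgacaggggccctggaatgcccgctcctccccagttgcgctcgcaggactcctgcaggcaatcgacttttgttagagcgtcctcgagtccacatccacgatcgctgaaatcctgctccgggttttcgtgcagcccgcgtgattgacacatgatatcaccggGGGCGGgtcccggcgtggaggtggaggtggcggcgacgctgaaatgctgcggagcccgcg

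The 4 promoters differed in these motifs. Dusp6 held 1 match to AGGAAG, which began 210 bases before the start site, and no GC box. Dusp5 held 1 match to AGGAAG (192 bases before the start) and 1 GC box (96 bases before), Spred1 held 2 GC boxes, and Spry1 held 1. Both strands were searched in the 8 windows of the 7 genes (Etv5 has 2 start sites) and in 32851 windows of the same length from all genes. AGGAAG was found in 3 of the 8 windows (Dusp5, Dusp6 and Spred2) and in 29.5% of all windows, and GGGCGG in 5 of the 8 windows and in 32.7% of all windows. TGACGT, the core of the cyclic AMP response element, was found for Dusp5 and Spred2 and in 6.47% of all windows. The Ets motif CCGGAA (12.0% of all windows), the AP-1 motif TGACTCA (4.46%) and the TATA box TATAAA (12.4%) had no match in the 8 windows. Neither did TGAATGAA (1.08%) or TGAATGGA (1.01%), which the repressor Cic binds, or the Sox motif ACAATG (10.7%). Only these exact letters were searched, so the absence does not cover other forms that Sox factors, Cic or the other factors bind. TGACGT can overlap its own reverse complement, the AGGAAG and CCGGAA motifs share the letters GGAA, and a window was counted once for each motif. Matches to GGAA alone were not counted. The windows were rich in G and C, with 56.0% to 71.2% against a median of 52.4% over all windows, and all 8 lay above that median. A match or its absence in these letters is a description of the window and not of binding.

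The 3 Sprouty genes differed in the size of the ratio. Spry4, an inhibitor of the Ras-Erk signal that Fgf induces, was at 51.4 TPM in E14 (7427 reads) and 134.6 TPM in E14-Sox2TA/WT cells (13034 reads), 2.62-fold higher (log2 ratio 1.39, 1.35 to 1.43). Spry2, the most abundant of the 3 in both libraries, was at 91.4 TPM (6010 reads) and 157.0 TPM (6914 reads), a 1.72-fold higher level short of the threshold (log2 ratio 0.78, 0.73 to 0.83). Spry1 was nearly level, at 19.0 TPM (1416 reads) and 23.1 TPM (1164 reads), with a log2 ratio of 0.28 (0.17 to 0.39). The counting intervals of the 3 log2 ratios did not overlap. The summed level of the 3 genes was 161.8 TPM in E14 and 314.6 TPM in E14-Sox2TA/WT cells, and the share of Spry4 in it was 31.7% and 42.8%, respectively. Spry3, the remaining paralog, was not analysed here.

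Spred1 had the highest ratio of the 10 genes. It encodes a membrane-bound partner of neurofibromin, the protein that switches Ras off, and stood at 15.8 TPM in E14 (3068 reads) and 53.2 TPM in E14-Sox2TA/WT cells (6905 reads). This was 3.36-fold higher (log2 ratio 1.75, 1.69 to 1.81), at place 74 of the 9094 genes. Its paralog Spred2, with the same kind of role, was at 34.8 TPM (3150 reads) and 56.1 TPM (3400 reads), 1.61-fold higher (log2 ratio 0.69, 0.62 to 0.76). In E14 the level of Spred1 was 0.455 times that of Spred2, and in E14-Sox2TA/WT cells it was 0.948 times, close to equal levels. Spred3, the remaining paralog, was at 3.22 TPM (411 reads) and 6.59 TPM (565 reads). Spred1 was also the gene that depended most on transcript composition, since its log2 ratio was 1.31 once its dependence on GC content and length of transcripts had been removed. Its transcript is long (6016 bases) and poor in G and C (41.2%).

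The ratios of the 2 Etv genes pointed opposite ways. Etv5, which with Etv4 takes part in the exit from naive pluripotency, was at 161.8 TPM in E14 (19483 reads) and 278.3 TPM in E14-Sox2TA/WT cells (22450 reads), 1.72-fold higher (log2 ratio 0.78, 0.75 to 0.81). Etv4 was at 166.4 TPM in E14 (12190 reads) and 112.0 TPM in E14-Sox2TA/WT cells (5497 reads), a level 1.49-fold higher in E14 (log2 ratio -0.57, -0.62 to -0.53). Neither passed 2-fold, and both intervals excluded an equal level. Etv5 and Etv4 were thus nearly equal in E14, with a ratio of 0.972, whereas Etv5 was 2.49 times as abundant as Etv4 in E14-Sox2TA/WT cells. Of the 9094 genes past the filter, 10.9% had a lower TPM ratio than Etv4 and 92.3% had a lower ratio than Etv5. After the same correction, the log2 ratio of Etv4 was -0.34, and it was below 0 under each alternative setting tried.

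**Figure D2:**
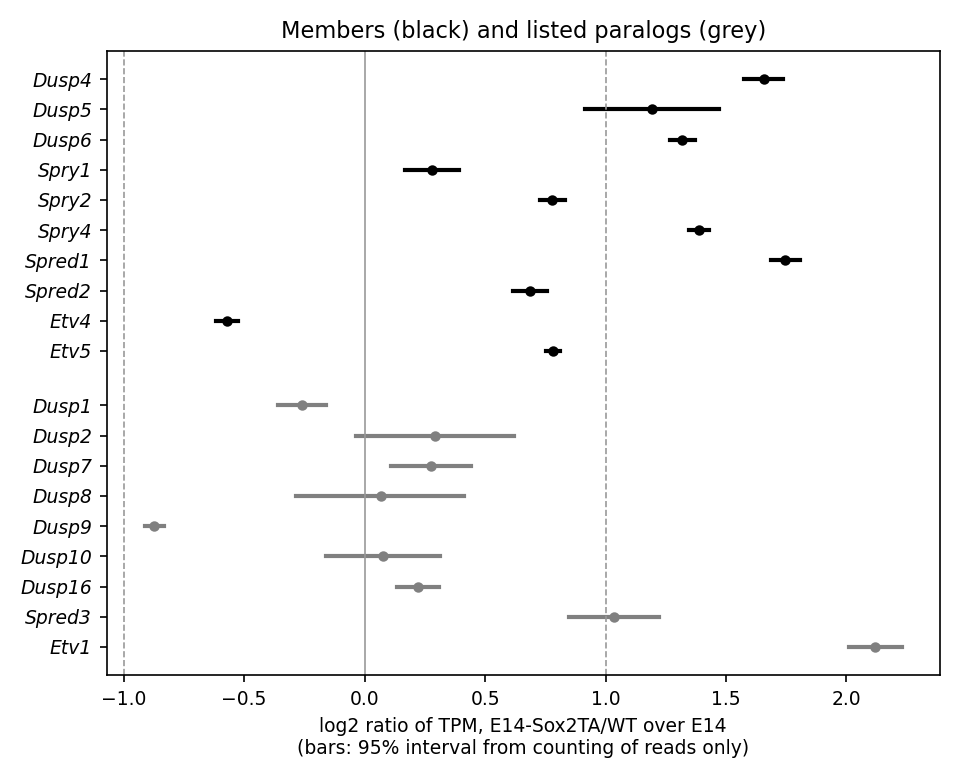
log2 ratio of TPM (E14-Sox2TA/WT over E14) with its 95% counting interval for the 10 members (black) and 9 listed paralogs (grey), from 1 library per genotype, with dashed lines at 2-fold. The members Spred1, Dusp4, Spry4, Dusp6 and Dusp5 and the paralogs Etv1 and Spred3 lie right of the upper dashed line, which the intervals of Dusp5 and Spred3 cross, and Etv4, Dusp1 and Dusp9 lie left of 0.

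Paralogs outside the 10 genes did not follow one pattern. Of 9 paralogs in the table, 4 passed the TPM filter and 1, Etv1, was more than 2-fold higher, beside 4.17% of all genes past the filter. Etv1, the remaining Pea3 factor, was at 6.66 TPM in E14 (899 reads) and 28.9 TPM in E14-Sox2TA/WT cells (2619 reads), through which alone it passed the filter, 4.34-fold higher (log2 ratio 2.12, 2.01 to 2.23). Dusp9, a cytoplasmic Erk phosphatase encoded on chromosome X, was the most abundant Dusp transcript in E14 at 225.5 TPM (19177 reads) and was at 123.0 TPM (7012 reads) in E14-Sox2TA/WT cells, with a log2 ratio of -0.87 (-0.91 to -0.83). Dusp7, its close relative, was at 6.62 and 8.02 TPM. Of the 9 paralogs, 7 were higher and 2, Dusp9 and Dusp1, were lower, with a median log2((TPM + 0.1) ratio) of 0.22. Among the 13269 genes whose mean TPM was 1 or more, 7053 were higher and 6216 lower.

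Taken as sums, the Erk-directed phosphatases and the Pea3 factors differed mainly in makeup. Dusp4, Dusp5, Dusp6, Dusp7 and Dusp9 together reached 315.2 TPM in E14 and 353.4 TPM in E14-Sox2TA/WT cells, 1.12 times as much. Dusp9 made up 71.5% of this sum in E14 and 34.8% in E14-Sox2TA/WT cells, while Dusp6 made up 17.1% and 38.0% and Dusp4 7.74% and 21.7%. Without Dusp9 the sum was 89.7 and 230.3 TPM, 2.57 times as much. In E14 the level of Dusp6 was 0.238 times that of Dusp9, and in E14-Sox2TA/WT cells it was 1.09 times. Etv1, Etv4 and Etv5 together reached 334.9 and 419.2 TPM, in which Etv4 made up 49.7% and 26.7%, Etv5 48.3% and 66.4%, and Etv1 1.99% and 6.90%.

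**Figure D3:**
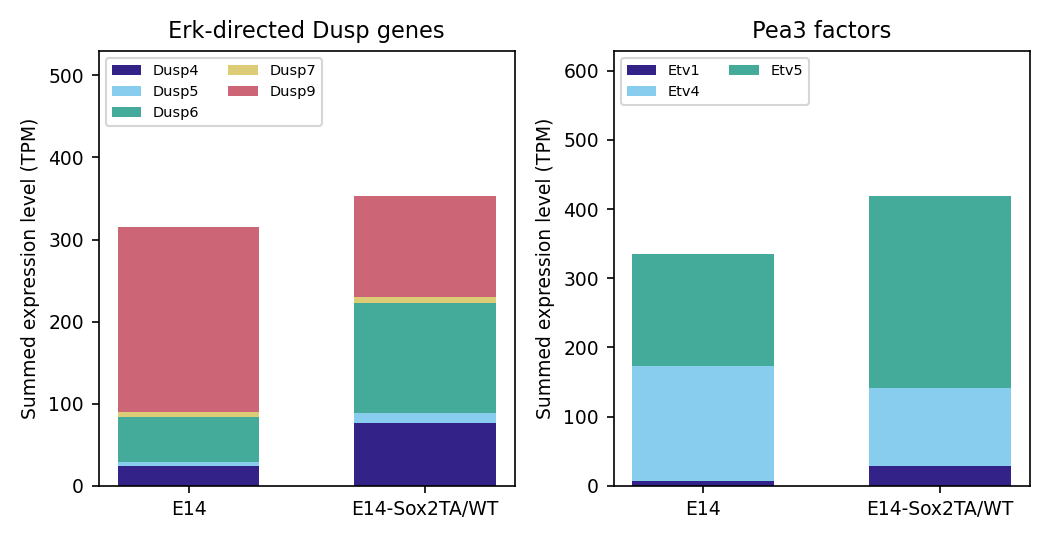
Stacked levels in TPM of the Erk-directed Dusp genes (left) and of the Pea3 factors (right) in E14 and E14-Sox2TA/WT cells, 1 library each. Dusp9 fills most of the left bar for E14 and 34.8% of that for E14-Sox2TA/WT cells, and Etv5 makes up 66.4% of the Pea3 sum in the latter.

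Other brakes on the pathway included 2 further genes with more than 2-fold higher expression, out of 11 of 15 that passed the TPM filter, and none that was more than 2-fold lower. Of all genes past the filter, 4.17% were more than 2-fold higher, and both of these passed it only through E14-Sox2TA/WT cells. Il17rd, which encodes the Fgf signaling antagonist Sef, was at 7.43 TPM in E14 (1923 reads) and 28.0 TPM in E14-Sox2TA/WT cells (4861 reads), 3.77-fold higher (log2 ratio 1.92). Atxn1l, a partner of the repressor Cic, was at 8.53 TPM (2023 reads) and 22.5 TPM (3567 reads), 2.63-fold higher. Cic, which represses Etv4 and Etv5 until Erk inactivates it, was nearly level at 45.0 and 49.9 TPM. The lowest ratio was that of Atxn1, at 1.65 TPM (552 reads) and 0.506 TPM (114 reads), which lay under the filter and was not counted. Of the 15 genes, 11 were higher and 4 lower, with a median log2((TPM + 0.1) ratio) of 0.37. In the table, 7053 of the 13269 genes whose mean TPM was 1 or more were higher.

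More than 2-fold differences in RNA were few among genes of the cascade itself, as they were across the table. Of all genes past the filter, 4.17% were more than 2-fold higher and 4.07% lower. Of 22 genes from the receptor adaptors to the kinases below Erk, 20 passed the filter, none was more than 2-fold higher and 1, the adaptor Frs3, was more than 2-fold lower (23.4 TPM and 1576 reads in E14, 9.77 TPM and 441 reads in E14-Sox2TA/WT cells). Mapk3, the gene for the kinase Erk1, was at 134.3 and 134.0 TPM. Gab1, a docking protein, had the highest ratio, at 133.9 and 241.0 TPM (1.80-fold). Over the 22 genes the median log2((TPM + 0.1) ratio) was 0.17, and it was 0.024 with CPM (reads scaled to the library total), 0.026 with FPKM and 0.048 after correction for GC content and length. RNA levels say nothing of the phosphorylation of these kinases, which was not measured.

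Ligands and receptors upstream were mixed. Of 17 genes, 8 passed the filter. Fgf15 (5.50 and 13.3 TPM) and the insulin-like growth factor receptor gene Igf1r (6.10 and 14.9 TPM) were more than 2-fold higher, both past the filter only through E14-Sox2TA/WT cells. Fgfr4 (12.8 and 4.91 TPM) was more than 2-fold lower and past it only through E14. The shares over all genes past the filter were 4.17% higher and 4.07% lower. Fgf4, the main Fgf of ESCs, was at 162.6 TPM in E14 (15531 reads) and 108.7 TPM in E14-Sox2TA/WT cells (6954 reads), a log2 ratio of -0.58 (-0.62 to -0.54). Fgfr1, the most abundant Fgf receptor, was at 62.9 and 88.4 TPM, and Fgfr2 at 3.09 and 5.87 TPM. Fgf5, a marker of the epiblast after the naive state, had 11 and 386 reads but lay under the filter at 0.142 and 7.32 TPM. Pdgfra had the lowest ratio, at 6.48 and 1.57 TPM, and also lay under the filter. Over the 16 genes whose mean TPM was 1 or more, the median log2((TPM + 0.1) ratio) was 0.38, and over those with 10 or more it was 0.072.

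Of 15 other transcripts known to respond to Erk, 10 passed the filter, 3 were more than 2-fold higher (4.17% of all genes past the filter) and none was more than 2-fold lower. Over the 14 with a mean TPM of 1 or above, 11 were higher and 3 lower, beside 7053 higher of the 13269 such genes in the table. Those more than 2-fold higher were Myc (27.1 TPM in E14 and 101.9 TPM in E14-Sox2TA/WT cells), Junb (24.1 and 76.9 TPM) and the ephrin receptor gene Epha2 (65.1 and 177.3 TPM). The immediate-early gene Egr1, induced within minutes of Erk activation, was nearly level at 32.7 and 34.5 TPM, as was Phlda1 at 19.6 and 19.9 TPM. Ccnd1, the gene for cyclin D1, was at 35.9 and 55.5 TPM. Fos, another immediate-early gene, had the lowest ratio, at 8.35 TPM (551 reads) and 3.05 TPM (135 reads), but lay under the filter and was not counted. The median log2((TPM + 0.1) ratio) over these 14 genes was 0.38, and the 10 feedback genes had the highest median of the 6 pathway lists. That order was not tested. It depends on how genes were assigned to lists, which were chosen with earlier results of these data known, and Il17rd and Etv1 were in other lists.

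**Figure D4:**
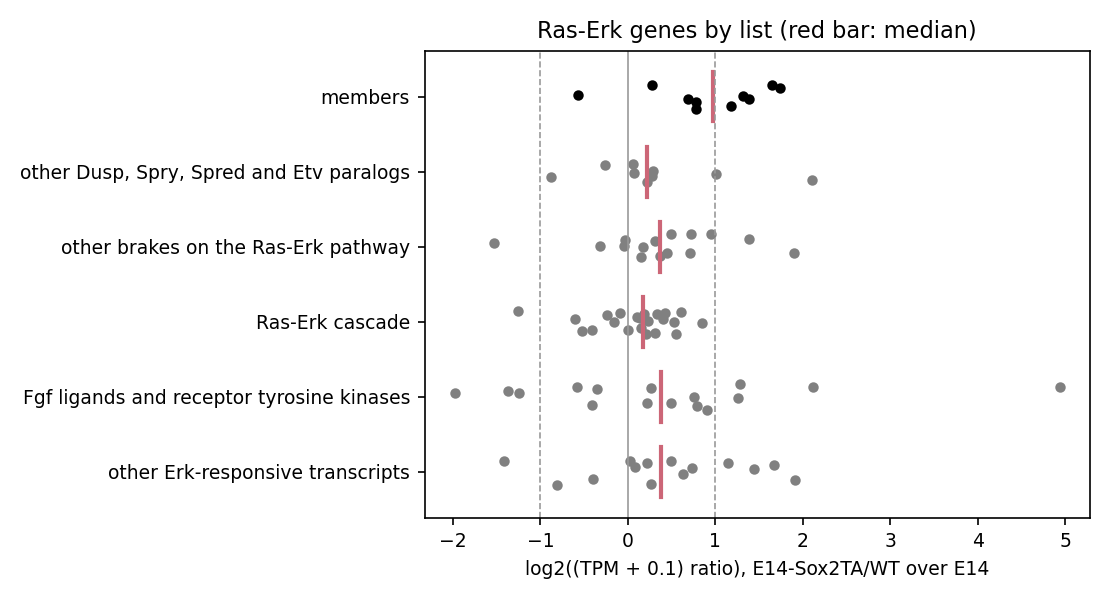
log2((TPM + 0.1) ratio), E14-Sox2TA/WT over E14, of genes whose mean TPM was 1 or more in the 6 lists of the Ras-Erk pathway, 1 point per gene, with red bars at list medians and dashed lines at 2-fold. The members' median is 0.98, and those of the other 5 lists lie between 0.17 and 0.38.

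Markers of other cell types were read beside these results, since bulk RNA cannot tell fewer cells of a type from less RNA per cell. Primitive endoderm is a cell type that depends on Fgf and Erk and appears in ESC cultures. All 8 of its markers whose mean TPM was 1 or more were lower in E14-Sox2TA/WT cells, beside 6216 of the 13269 such genes in the table. The summed level over 9 markers was 136.2 TPM in E14 and 83.4 TPM in E14-Sox2TA/WT cells. Of the 8, Col4a1 (61.9 and 46.4 TPM), Lama1 (27.9 and 18.6 TPM) and Dab2 (8.87 and 7.36 TPM) were less than 2-fold lower. The rest of the 8 were more than 2-fold lower, among them Gata4 at 15.0 and 3.80 TPM. The median log2 ratio of the 8 was -1.38, and it was -0.50 over those with a mean TPM of 10 or more. Of 10 fibroblast markers, 3 passed the TPM filter, and Dcn, Lum and Postn had no reads in either library. Thy1 (40.1 and 11.4 TPM) was more than 2-fold lower, beside 4.07% of all genes past the filter. Acta2 (2.05 and 13.7 TPM), past the filter only through E14-Sox2TA/WT cells, was more than 2-fold higher, beside 4.17%. Under the filter, Col1a2 (43 and 109 reads) and Col3a1 (15 and 151 reads) were higher, and Pdgfrb (1151 and 327 reads) was lower. Col1a1 was nearly level at 2.66 and 2.95 TPM. The sum of the list was 264.3 and 355.8 TPM, of which Fn1 was 212.4 and 322.6 TPM. Of 8 trophoblast markers, Elf5 and Tpbpa had no reads, Cdx2 was at 0.474 and 12.2 TPM, Tfap2c was at 50.9 and 16.1 TPM, and the sum was 69.7 and 38.3 TPM. The part of such cells in the levels of the feedback genes was not tested.

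The 10 genes lie on 9 chromosomes. Spred2 (19924442 to 20024026) and Etv4 (101769747 to 101785310) share chromosome 11, while their ratios point opposite ways. Etv5 lies on chromosome 16 (22381313 to 22439570), Spry2 on chromosome 14 (105891947 to 105896819) and Spry4 on chromosome 18 (38586247 to 38601347). Dusp4 lies on chromosome 8 (34807610 to 34819894), whose 724 genes had a median log2((TPM + 0.1) ratio) of 0.26, and relative to this median Dusp4 was higher by 1.39. For the other 9 genes the median of the chromosome was between 0.02 and 0.14, and none of the 10 ratios changed sign relative to it. The ratio of TPM to the deposited FPKM was the same for the 10 genes within each library, at 1.94 in E14 and 2.15 in E14-Sox2TA/WT cells. No other gene in the table overlapped any of the 10 in the RefSeq annotation.

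Each gene kept the direction of its ratio under the 8 other scalings, corrections and pseudocounts tried, and the number of genes more than 2-fold higher was 5 in all of them. Scaling by total reads (CPM) or by FPKM lowered the median of all genes by 0.14 on the log2 scale, and the ratios of the 10 genes moved with it, to 1.04 for Dusp5 with CPM. Over all genes past the filter, 379 were more than 2-fold higher and 370 lower by TPM, and 280 were higher and 496 lower by CPM.

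**Figure D5:**
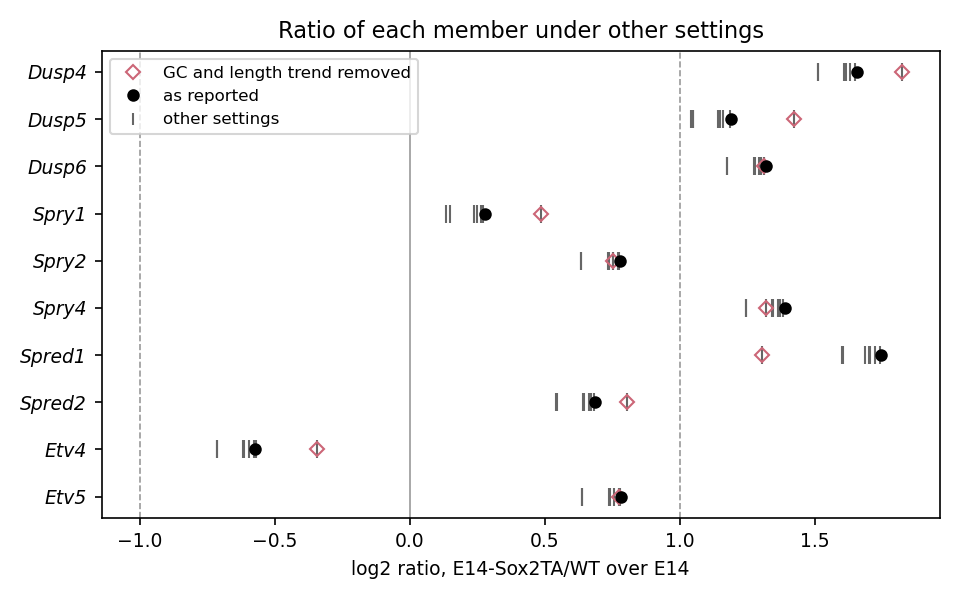
log2 ratio of each of the 10 genes (E14-Sox2TA/WT over E14) as reported (black), corrected for GC content and length of transcripts (diamonds) and under other scalings and pseudocounts (ticks), with dashed lines at 2-fold. No gene crosses 0 or a dashed line, and Spred1 moves most, to 1.31 when corrected.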

How the data were processed

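Polyadenylated RNA of E14 and E14-Sox2TA/WT cells was sequenced on a NovaSeq instrument, with 1 library per genotype. For each gene the authors deposited whole read counts that were not normalized, FPKM (scaled to transcript length and sequenced fragments) and TPM (scaled to length and to the same total in each library). The submitters' processing notes name bcl2fastq 2.20.0, Trimmomatic, HISAT2 2.1.0 and StringTie 2.1.3b, and the builds mm10 and hg19. The gene table used here is the one given as mm10, with mouse gene symbols. Strand and multi-mapped reads are not given in the sources used here.

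The ratio of TPM was taken without a pseudocount, and genes past a TPM of 10 in either library that differed more than 2-fold were counted. Intervals come from read counts (scipy 1.17.1) placed on the TPM scale. PCR copies are not independent molecules, so they cover counting error only. List medians use log2((TPM + 0.1) ratio) over genes whose mean TPM was 1 or more. Alternatives were other filters, folds and pseudocounts, TMM (edgeR 4.0.16), median-of-ratios (DESeq2 1.42.0), CPM, FPKM, centring, rescaling without the 10 highest genes, and medians removed in 20 bins each of GC content and length of GENCODE M21 transcripts (99.1% of genes matched). The interval code was tested on simulated data. Members and lists were chosen with earlier results of these data known. Named were all members, each list gene past 2-fold, the highest and lowest of each pathway list, and a few genes fixed by name, of which 1 is not reported here. With 2 libraries, no genes of similar pattern were sought.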

Additional observations from a re-analysis of the deposited data

How the results depend on the processing

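Without replicates, the values rest on 1 culture of 1 clone and 1 culture of the parental line, and the spread between cultures is unknown. The count of 5 genes more than 2-fold higher stayed at 5 or fell to 4 under 13 of the 15 alternatives. It was 8 at 1.5-fold and 2 at 3-fold, thresholds that admit more or fewer genes by construction, and it was 4 with a filter at a TPM of 20 or with the counting interval wholly above 2-fold, both without Dusp5. No gene was more than 2-fold lower under the same 15 alternatives. The median of the 10 genes (0.98) ran from 0.84 with CPM or FPKM to 1.06 with correction for GC content and length. Over genes whose mean TPM was 10 or more, the median of the paralogs changed sign to -0.019 and that of the fibroblast markers to -0.60, with fewer genes by construction, and that of the Fgf ligands and receptors was 0.072. The cascade median (0.17) was 0.024 with CPM, and those of the other brakes (0.37) and other Erk-responsive genes (0.38) were 0.23 and 0.24 with CPM or FPKM. No paired analysis was possible because each genotype has 1 library. Depth limits only Dusp5, with 181 and 276 reads.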

Other observations

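Families of the members were also read in full, a choice made after the members' values had been seen. Of 24 Dusp-numbered genes in the table, 12 passed the TPM filter, and Dusp4, Dusp5 and Dusp6 were the ones more than 2-fold higher, with none more than 2-fold lower. These are the members described above. Over all genes past the filter, 4.17% were more than 2-fold higher and 4.07% lower. The 14 Dusp genes outside the lists above, several of which act on other MAP kinases or other substrates, had a median log2((TPM + 0.1) ratio) of 0.01 over the 10 whose mean TPM was 1 or more, from Dusp19 (13.4 TPM in E14 and 9.08 TPM in E14-Sox2TA/WT cells) to Dusp27 (9.19 and 17.6 TPM).

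Of 26 Ets-domain factors in the table, 11 passed the filter. Etv1 and Etv6 were more than 2-fold higher, both past the filter only through E14-Sox2TA/WT cells, and Elf3 was more than 2-fold lower. The shares over all genes past the filter were 4.17% and 4.07%, respectively. Etv6, a transcriptional repressor, was at 5.37 TPM in E14 (964 reads) and 16.1 TPM in E14-Sox2TA/WT cells (1925 reads), and Elf3, an epithelial factor, was at 44.4 TPM (2748 reads) and 22.2 TPM (924 reads), so its log2 ratio (95% counting interval -1.11 to -0.89) lay at the threshold within counting error. Erf, a repressor that Erk expels from the nucleus, was at 95.4 and 154.1 TPM (log2 ratio 0.69), and Gabpa was nearly level at 86.0 and 81.1 TPM. Of the 19 Ets-domain factors whose mean TPM was 1 or more, 14 were higher and 5 lower, with a median log2((TPM + 0.1) ratio) of 0.46. Among all 13269 genes at that level, 7053 were higher and 6216 lower.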
